A study of Ovis aries with 2 samples.

Results

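A set of 10 genes of the tumour necrosis factor (TNF) superfamily was followed across the blood lymphocytes and monocytes of sheep. They were 8 receptor genes (TNFRSF18, TNFRSF4, TNFRSF9, TNFRSF25, CD27, CD40, TNFRSF13B and TNFRSF13C) and 2 ligand genes (CD40LG and TNFSF11), taken by name from the gene list of the count tables. All 10 were among the 26814 gene names of the tables, and each gave between 53 and 5943 unique molecular identifiers (UMIs, 1 for each counted RNA molecule) in the cells of a library. Receptors of this family sit in the cell membrane and bind trimeric ligands on neighbouring cells. They have no enzyme of their own and recruit TRAF adaptor proteins, through which most of those followed here feed NF-kB, survival and costimulation. Known from mouse and human, TNFRSF18 (GITR) and TNFRSF4 (OX40) are costimulatory receptors that regulatory T cells carry at rest, the pair of CD40 on B cells and CD40LG on helper T cells drives B-cell help, and TNFRSF13B (TACI) and TNFRSF13C (the BAFF receptor) relay B-cell survival signals.

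The A.G.-ES library came from lambs given acupoint embedding of A.G.-ES at ST36 on both sides before bleeding, and the untreated library from animals that received nothing. The series title describes weaned lambs and a drug-eluting suture with astragaloside IV and glycyrrhizic acid, saponins of Astragalus and liquorice root, and asks about the balance of regulatory and Th17 cells. Mononuclear cells were isolated on a density gradient, not cultured, and read with a droplet method that counts the 3′ ends of transcripts. The labels give 1 library to each group and not the number of animals behind it, so no test between the groups could be made. Every interval below is a 95% interval for counting error only and says nothing on the spread between animals.

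The deposited A.G.-ES table held 9638 barcodes and 44485442 UMIs and the untreated one 8246 barcodes and 55861418 UMIs, and 61 barcode sequences occurred in both. After filters and removal of doublets 8737 and 7565 cells were left, with medians of 4100 and 5130 UMIs. Mitochondrially encoded genes gave 2.26% of UMIs in the A.G.-ES library and 1.43% in the untreated one. The 85 Y-linked genes gave 850 UMIs in the A.G.-ES library and 44632 in the untreated library, a difference that ran alongside the treatment in every comparison and whose part in the results was not tested.

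Cells were assigned to 7 gates by UMIs of lineage genes. CD4 T barcodes carried CD3 genes and CD4 and were split by whether they held a UMI of FOXP3, the transcription factor of regulatory T cells. CD8B T barcodes carried CD3 genes and CD8B, SOX13/RHEX T barcodes CD3 genes with SOX13 and RHEX, and NK barcodes NCR1 or KLRF1 and no CD3 gene. B barcodes were gated on MS4A1, CD79A and CD79B, and monocyte barcodes on a set of monocyte genes that includes CD14, CSF1R and VCAN. The gates held 49 FOXP3-positive CD4 T barcodes in the A.G.-ES library and 30 in the untreated one, 1331 and 333 FOXP3-negative CD4 T, 565 and 176 CD8B T, 602 and 1137 SOX13/RHEX T, 57 and 38 NK, 1747 and 3248 B and 249 and 174 monocyte barcodes. Another 4137 A.G.-ES and 2429 untreated cells (47.4% and 32.1%) met no gate.

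Levels are given in CPM, the UMIs of a gene per 1000000 UMIs of the gate, and are compared between gates and libraries but not between genes. Lists of markers were used to check the gates. Those of CD4 T, regulatory T, B and monocyte cells held no gating gene. In both libraries they were highest in the gate of their cell type. CD8A, in the CD8 T list, had a part in the gating, as CD4 T barcodes had to hold none of it. Of a list of 7 regulatory T markers, 6 were detected with at least 3 UMIs in the FOXP3-positive gate of each library. FOXP3-negative CD4 T barcodes also had 6 detected in each library, so this count does not tell these gates apart. The summed level was 967 CPM in A.G.-ES and 1493 CPM in untreated FOXP3-positive barcodes, against 241 and 283 CPM in FOXP3-negative ones. In the NK gate the sums were 273 and 310 CPM. The monocyte markers LYZ, TLR4, TLR2, CD68, SPI1 and CSF3R were at 0 in the 49 A.G.-ES and 30 untreated FOXP3-positive CD4 T barcodes. CD68 was at 0 in the monocyte gate of both libraries too, so its absence tells nothing on the FOXP3-positive gate. LYZ and CSF3R were also at 0 in some other lymphocyte gates. The 7 B markers summed to 3270 and 5572 CPM in B barcodes and to at most 136 and 333 CPM in the other gates. The 5 NK markers summed to 3223 and 6301 CPM in the NK gate but to 5885 and 7430 CPM in CD8B T barcodes. The NK gate is small, and 5 of 6 CD8 T markers of the tables were detected in its A.G.-ES part (2505 CPM) and 3 of 6 in its untreated part (1674 CPM). CD8B T barcodes had 3054 and 1370 CPM of this list, less than the NK gate in the untreated library. The 6 gamma-delta T markers did not tell the gates apart, at 1775 CPM in A.G.-ES and 1782 CPM in untreated SOX13/RHEX T barcodes and at 1976 and 2149 CPM in FOXP3-positive CD4 T ones, so the SOX13/RHEX gate is called by its rule alone. A set of 4 cell-division markers differed between the libraries in several gates. It summed to 37.8 CPM in A.G.-ES and 714 CPM in untreated FOXP3-positive CD4 T barcodes, 55.5 and 294 CPM in FOXP3-negative ones, 93.6 and 959 CPM in CD8B T and 23.2 and 222 CPM in B barcodes. Ratios without barcodes that held a UMI of such a marker are therefore given where they alter a statement.

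The gate with the highest level was the same in both libraries for 7 of the 10 genes, with TNFRSF9, TNFRSF25 and CD27 as the exceptions. TNFRSF18, TNFRSF4 and CD40LG were highest in CD4 T barcodes, CD27 and TNFRSF25 in T barcodes, TNFSF11 in SOX13/RHEX T barcodes, and CD40, TNFRSF13B and TNFRSF13C in B barcodes. Monocytes held at most 2 UMIs of any of the 10 genes other than CD40 and TNFRSF9 in either library, in at most 0.803% of A.G.-ES and 1.15% of untreated monocyte barcodes. Whether these few UMIs were stray RNA in droplets or RNA of the monocytes was not tested, and the shares are not at equal depth. The median depth of the monocyte barcodes was 6448 UMIs in the A.G.-ES and 4154 UMIs in the untreated library, against 4683 and 5229 UMIs in FOXP3-negative CD4 T barcodes and 5393 and 9015 UMIs in B barcodes.

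**Figure D1:**
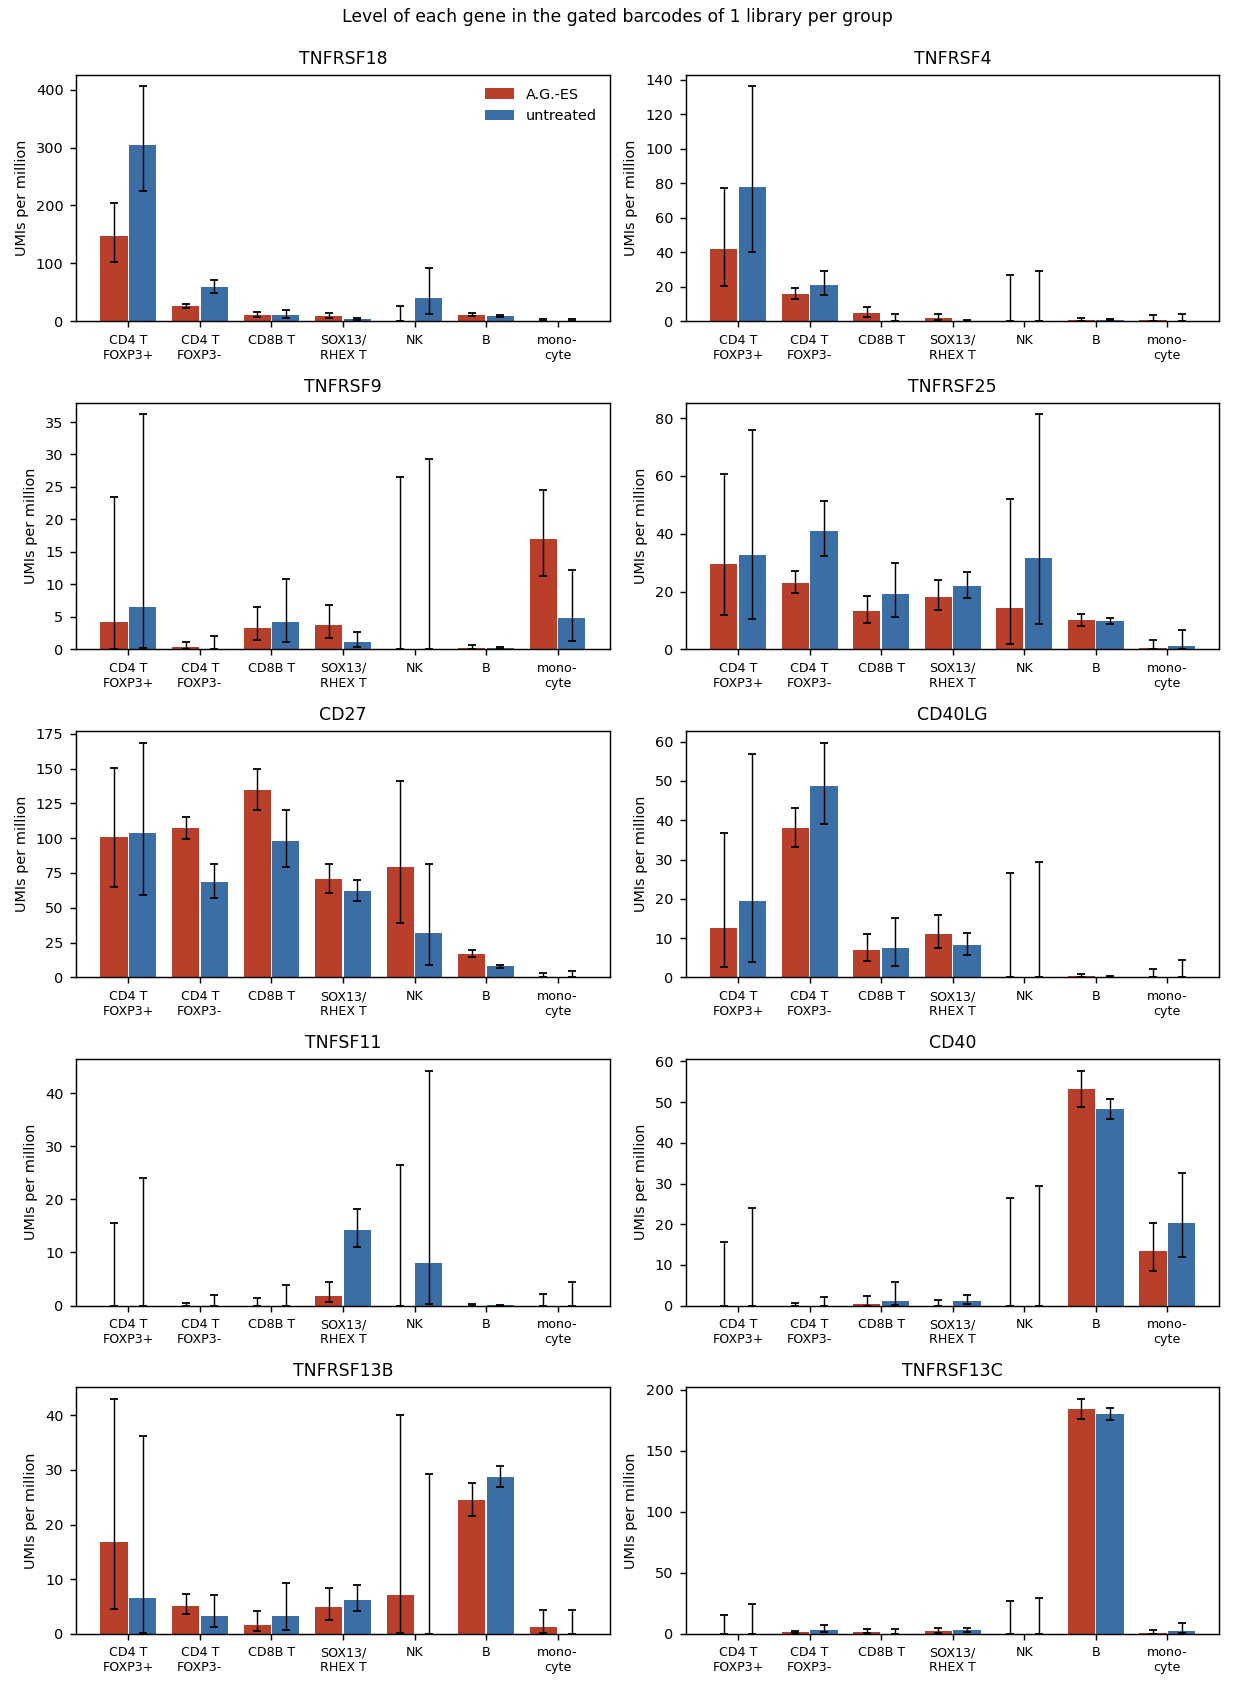
Level of each of the 10 genes (y axis, CPM of the summed counts) in the 7 gates (x axis), with the A.G.-ES library in red and the untreated library in blue; lines are exact 95% Poisson intervals, counting error only. TNFRSF18 stood at 147 in A.G.-ES and 305 in untreated FOXP3-positive CD4 T barcodes, and TNFRSF13C at 184 and 180 in B barcodes.

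Between the libraries, 28 of the 70 pairs of a gene and a gate had at least 20 UMIs over both libraries and were counted. The level was at least 1.5-fold higher in the A.G.-ES library in 5 of them, at least 1.5-fold lower in 6 and between in 17. The interval of the ratio left out 1 in 8 of these 11 pairs. The share of all genes with such an interval was not computed, so this count has nothing to be set against. Differences past 1.5-fold were common among all genes of the same gates. In FOXP3-positive CD4 T barcodes 12.4% of all genes were at least 1.5-fold higher and 24.8% lower, and 0 and 2 of 3 counted pairs were. In FOXP3-negative CD4 T barcodes the shares of all genes were 10.5% and 18.0%, against 2 and 2 of 6 pairs. In CD8B T barcodes they were 9.84% and 29.7%, against 0 of 4 pairs in either direction, and in SOX13/RHEX T barcodes 9.82% and 17.9%, against 1 and 1 of 6 pairs. In B barcodes they were 16.1% and 17.4%, against 1 and 0 of 7 pairs, and in monocytes 14.7% and 15.7%, against 1 and 1 of 2 pairs. In NK barcodes the shares were 20.9% and 17.9%, and no pair reached 20 UMIs. The median log2 ratio of all genes lay between −0.29 in CD8B T and 0.05 in NK barcodes.

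**Figure D2:**
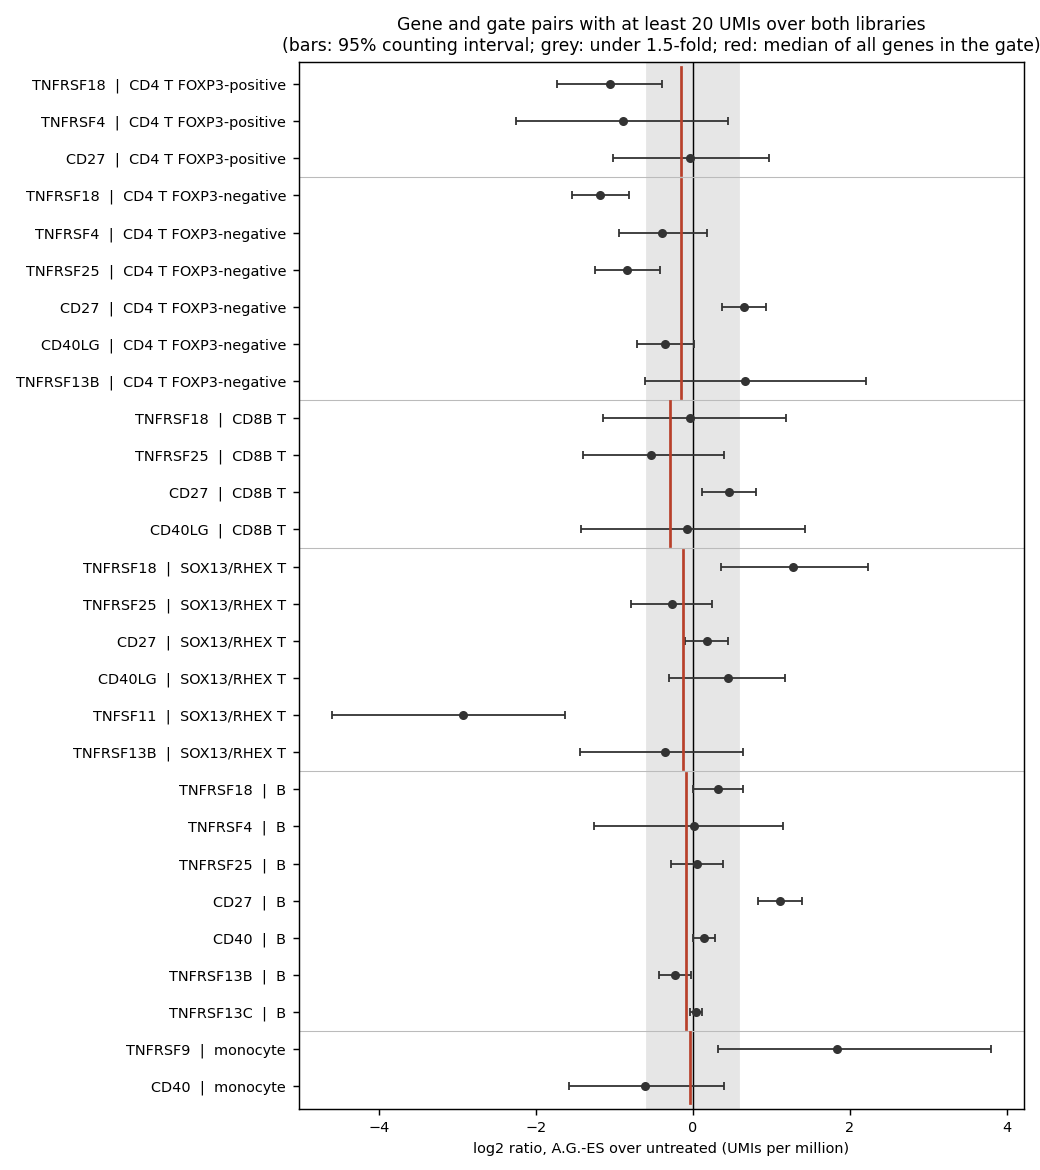
Log2 ratio of the level in the A.G.-ES over the untreated library (x axis) for the 28 pairs of a gene and a gate with at least 20 UMIs (y axis); bars are exact conditional 95% intervals, the grey band marks less than 1.5-fold and the red line the median of all genes in that gate. TNFSF11 in SOX13/RHEX T barcodes lies lowest at −2.93 and TNFRSF9 in monocytes highest at 1.83, while the 3 B-cell receptor genes CD40, TNFRSF13B and TNFRSF13C lie within the band in B barcodes.

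The ligand gene CD40LG (CD154), which helper T cells show to CD40 on B cells, was a gene of FOXP3-negative CD4 T barcodes. It was at 37.9 CPM there in the A.G.-ES library (244 UMIs) and 48.6 CPM in the untreated library (90 UMIs). The ratio was 0.780 (0.610 to 1.00), which is within 1.5-fold. A CD40LG UMI was found in 6.61% of A.G.-ES barcodes and 6.65% of untreated barcodes when each was thinned to 1500 UMIs, and in 14.8% and 19.5% without thinning. The shares at equal depth thus lay beside each other. With the gates themselves rebuilt on 1500 UMIs per barcode the log2 ratio was 1.31 instead of −0.36. The minimum of 20 UMIs was not applied to that value.

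CD40LG levels in the other T gates lay below these. The SOX13/RHEX T gate had 11.2 CPM in the A.G.-ES library and 8.23 CPM in the untreated library, and the CD8B T gate 6.98 and 7.38 CPM. FOXP3-positive CD4 T barcodes held 3 UMIs in each library, which is 0.333 of the FOXP3-negative level in the A.G.-ES library (0.0681 to 0.983) and 0.40 in the untreated library (0.0811 to 1.21). B barcodes held 4 and 5 UMIs, and NK and monocyte barcodes none in either library. Within FOXP3-negative CD4 T barcodes, those with a UMI of CCR7, the lymph-node homing receptor of naive and central memory T cells, had 22.2 CPM of CD40LG against 39.4 CPM in those without in the A.G.-ES library, and 27.3 against 50 CPM in the untreated library. The ratios, 0.564 (0.287 to 1.00) and 0.546 (0.111 to 1.65), rest on 12 and 3 UMIs in the CCR7-positive barcodes. CD40LG is listed on chromosome X in the RefSeq sheep annotation ARS-UI_Ramb_v3.0, and the libraries differed in Y-linked UMIs as given above.

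The other ligand gene, TNFSF11, encodes RANKL, known for osteoclast formation and lymphoid tissue development, which binds TNFRSF11A (RANK). The barcodes that carried it differed between the libraries. Among SOX13/RHEX T barcodes there were 5 TNFSF11 UMIs in the A.G.-ES library (1.86 CPM, 0.605 to 4.35) and 64 in the untreated library (14.2 CPM, 10.96 to 18.2). The ratio was 0.131 (0.0411 to 0.322), a log2 ratio of −2.93, and over the alternative gates, scalings and filters it lay between −3.46 and −2.17. At 1500 UMIs per barcode, 0.336% of A.G.-ES barcodes (2 of 596) and 1.53% of untreated ones (17 of 1111) had a TNFSF11 UMI, with 0.664% and 3.78% without thinning. The 64 untreated UMIs came from 43 barcodes, with at most 5 in any of them. The make-up of the gate differed too: 180 of 602 A.G.-ES and 676 of 1137 untreated barcodes held a SOX4 UMI, the CD8 T list summed to 273 and 64.3 CPM and the regulatory T list to 91.3 and 22.5 CPM, and the part of these lists in the TNFSF11 ratio was not tested. Within SOX4-positive barcodes TNFSF11 was at 5.51 CPM in the A.G.-ES library and 13.6 CPM in the untreated library (4 and 37 UMIs, ratio 0.406, 0.105 to 1.13), and within SOX4-negative ones at 0.511 and 15.3 CPM (1 and 27 UMIs, ratio 0.0334, 0.000817 to 0.203).

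No TNFSF11 UMI lay in a CD4 T, CD8B T or monocyte barcode of either library. In the 1331 A.G.-ES and 333 untreated FOXP3-negative CD4 T barcodes, 0 UMIs allow a share of up to 0.225% and 0.901% of barcodes with a UMI by a limit of 3 counts, and of up to 0.277% and 1.10% by the exact interval. B barcodes held 0 and 1 UMI, and NK barcodes 0 and 1.

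Of the 82 TNFSF11 UMIs of the A.G.-ES library all but 5 lay outside the gates, in barcodes that were split and described after their values were seen. The T barcodes without CD4, CD8B or SOX13/RHEX UMIs enough for a gate were split by CTLA4, an inhibitory receptor of activated and regulatory T cells. With at least 2 CTLA4 UMIs they numbered 116 in the A.G.-ES library and 7 in the untreated library. They held 36 of the TNFSF11 UMIs of the A.G.-ES library (43.9%), in 22 barcodes and at 80.4 CPM (56.3 to 111), and none of those of the untreated library. The 7 untreated barcodes held 49524 UMIs of all genes, against 447586 in the A.G.-ES ones, so the 0 there limits the level only loosely. With under 2 CTLA4 UMIs, 1899 A.G.-ES and 542 untreated barcodes held 16 and 7 TNFSF11 UMIs (2.21 and 3.33 CPM). CTLA4-high barcodes of the A.G.-ES library had 1539 CPM of CD3E, 387 CPM of CD28 and 24.6 CPM of FOXP3, from 11 FOXP3 UMIs. SOX13/RHEX T barcodes thus held 6.10% of the TNFSF11 UMIs of the A.G.-ES library and 54.2% of those of the untreated library.

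**Figure D3:**
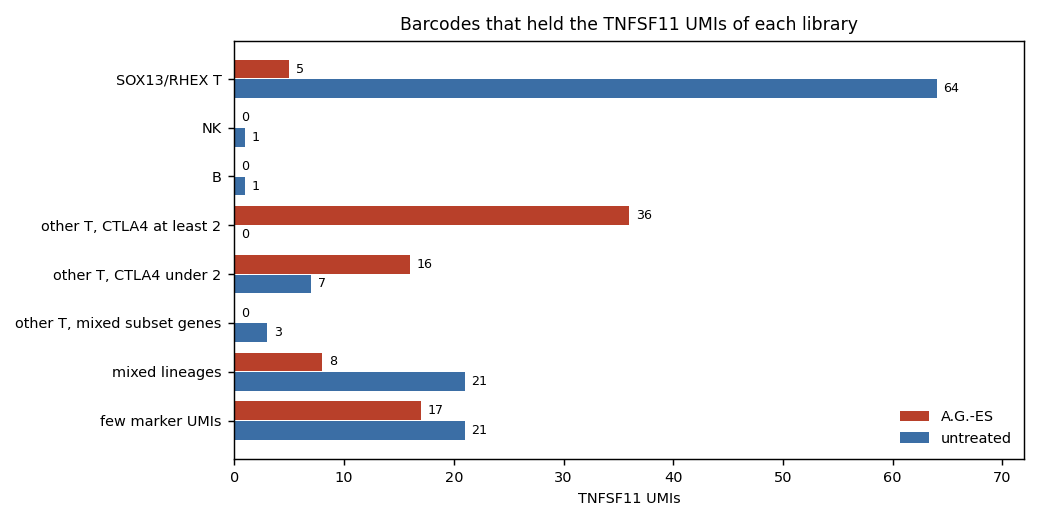
Number of TNFSF11 UMIs (x axis) by kind of barcode (y axis) in the A.G.-ES library (red) and the untreated library (blue). SOX13/RHEX T barcodes held 5 A.G.-ES and 64 untreated UMIs. Other T barcodes with at least 2 CTLA4 UMIs held 36 and 0, and numbered only 7 in the untreated library against 116. Gates without any TNFSF11 UMI are left out.

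Among the receptors, TNFRSF18 (GITR) had its highest level in FOXP3-positive CD4 T barcodes of both libraries. It was at 147 CPM in the A.G.-ES library (35 UMIs, 102 to 205) and 305 CPM in the untreated library (47 UMIs, 224 to 406). In FOXP3-negative CD4 T barcodes it was at 26.0 CPM (167 UMIs) and 58.9 CPM (109 UMIs). FOXP3-positive barcodes thus had 5.67 times the level of FOXP3-negative ones in the A.G.-ES library (3.82 to 8.20) and 5.18 times in the untreated library (3.60 to 7.36). At 1500 UMIs per barcode a TNFRSF18 UMI was found in 14.6% of A.G.-ES (7 of 48) and 50% of untreated (15 of 30) FOXP3-positive barcodes, and in 3.95% and 6.95% of FOXP3-negative ones. In the A.G.-ES library 9 of the 35 UMIs came from 1 barcode, and in the untreated library 8 of 47.

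Both CD4 T gates had less TNFRSF18 in the A.G.-ES library. The ratio was 0.482 (0.302 to 0.763) in FOXP3-positive and 0.441 (0.344 to 0.566) in FOXP3-negative barcodes, log2 ratios of −1.05 and −1.18 where the median gene of the gates stood at −0.15 and −0.16. Over the alternatives they ranged from −2.00 to −0.88 and from −1.36 to −0.97. Without barcodes that held a UMI of a cell-division marker (cycling barcodes) they were −1.36 and −1.16. Cells with CD3 but outside the T gates and with under 2 CTLA4 UMIs had 18.9 CPM in the A.G.-ES and 62.4 CPM in the untreated library (ratio 0.304, 0.237 to 0.389). In the FOXP3-positive gate, the summed regulatory T markers were also lower in the A.G.-ES library, at 967 against 1493 CPM, and their part in the TNFRSF18 difference was not tested.

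The SOX13/RHEX T gate ran the other way. TNFRSF18 was at 9.69 CPM there in the A.G.-ES library (26 UMIs) and 4.0 CPM in the untreated library (18 UMIs), a ratio of 2.42 (1.28 to 4.69). The regulatory T marker list summed to 91.3 CPM in A.G.-ES and 22.5 CPM in untreated SOX13/RHEX T barcodes, and at 1500 UMIs per barcode 0.839% (5 of 596) and 0.45% (5 of 1111) had a TNFRSF18 UMI, so few barcodes carry this ratio. CD8B T barcodes had 10.3 and 10.5 CPM, with a log2 ratio of −0.04 that was −0.65 without cycling barcodes. B barcodes had 11.3 and 9.05 CPM (118 and 286 UMIs), in 1.45% and 1.43% of barcodes at equal depth, above the monocyte gate, which held 1 UMI in the A.G.-ES and none in the untreated library. NK barcodes held 0 and 5 UMIs.

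A further site of TNFRSF18 turned up outside the gates of the untreated library. Barcodes with genes of antibody secretion (JCHAIN, MZB1, DERL3) that met no gate numbered 9 in the A.G.-ES library and 47 in the untreated library, and held 0 and 104 TNFRSF18 UMIs. A single untreated barcode held 81 of the 104, and 8 barcodes held at least 1.

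TNFRSF4 (OX40), like TNFRSF18, had its highest levels in the 2 CD4 T gates of both libraries. The TNFRSF4 intervals of these gates were separate from each other and from those of the CD8B T, SOX13/RHEX T, B and monocyte gates. They were not all separate from the small NK gate, whose intervals were 0 to 26.5 CPM in the A.G.-ES and 0 to 29.3 CPM in the untreated library. FOXP3-positive CD4 T barcodes had 42.0 CPM in the A.G.-ES library (10 UMIs) and 77.9 CPM in the untreated library (12 UMIs), and FOXP3-negative ones 16.0 CPM (103 UMIs) and 21.1 CPM (39 UMIs). FOXP3-positive over FOXP3-negative, the ratio was 2.63 (1.22 to 5.03) in the A.G.-ES and 3.70 (1.76 to 7.21) in the untreated library. In the A.G.-ES library 6 of the 10 UMIs came from 1 barcode, and with stricter gates its log2 ratio was −0.58 instead of 1.39. The A.G.-ES over untreated ratios were 0.540 (0.209 to 1.36) in FOXP3-positive and 0.760 (0.521 to 1.13) in FOXP3-negative barcodes, and both intervals hold 1. Over the alternatives the log2 ratio ranged from −2.72 to −0.72 in FOXP3-positive and from −1.50 to −0.19 in FOXP3-negative barcodes, where it was −0.89 and −0.40 as reported.

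In the other gates TNFRSF4 was scarce. CD8B T barcodes held 11 UMIs in the A.G.-ES library and 0 in the untreated library, and the exact interval of the ratio, from 0.977 upwards, holds 1. SOX13/RHEX T barcodes held 5 and 0 UMIs, B barcodes had 0.860 and 0.854 CPM, and NK barcodes held none. Outside the gates, T barcodes with under 2 CTLA4 UMIs held 30.2% of the TNFRSF4 UMIs of the A.G.-ES library (73 UMIs, 10.1 CPM) and 26.3% of those of the untreated library (36 UMIs, 17.1 CPM). The RefSeq annotation places TNFRSF4 and TNFRSF18 next to each other on chromosome 12. In FOXP3-negative CD4 T barcodes, 23.9% of the A.G.-ES barcodes with a TNFRSF4 UMI also had a TNFRSF18 UMI (21 of 88), where 10.1% of all such barcodes had one. In the untreated library it was 34.4% (11 of 32), where 21.6% of all had one. Barcodes with more UMIs hold more of both genes, so this is a description only.

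**Figure D4:**
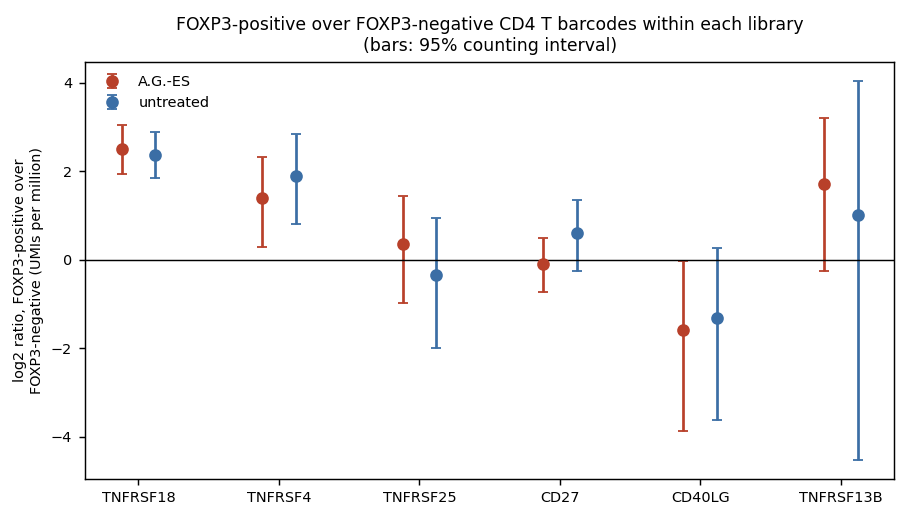
Log2 ratio of the level in FOXP3-positive over FOXP3-negative CD4 T barcodes (y axis) for 6 genes (x axis) in the A.G.-ES library (red) and the untreated library (blue), with exact conditional 95% intervals. TNFRSF18 lies at 2.50 and 2.37 and TNFRSF4 at 1.39 and 1.89, while CD40LG lies at −1.59 and −1.32.

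Of the 10 genes, 6 in the A.G.-ES library and 5 in the untreated library had at least 20 UMIs over both CD4 T gates. FOXP3-positive barcodes were at least 1.5-fold higher for 3 genes in either library and at least 1.5-fold lower for 1. Among all counted genes of the A.G.-ES library 20.9% were higher and 16.3% lower, and among those of the untreated library 19.1% and 19.3%. Besides TNFRSF18 and TNFRSF4 the higher ones were TNFRSF13B in the A.G.-ES library (16.8 against 5.13 CPM, 4 and 33 UMIs, ratio 3.28, 0.844 to 9.22) and CD27 in the untreated library (104 against 68.6 CPM, ratio 1.51, 0.840 to 2.55). Neither of these intervals leaves out 1.

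TNFRSF9 (4-1BB, CD137), a costimulatory receptor that activated T and NK cells acquire, was scarce on lymphocytes. Monocyte barcodes held 28 UMIs in the A.G.-ES library (17.0 CPM) and 4 in the untreated library (4.79 CPM), a ratio of 3.55 (1.24 to 13.9). At 1500 UMIs per barcode 3.28% of A.G.-ES (8 of 244) and 1.27% of untreated (2 of 157) monocyte barcodes had a TNFRSF9 UMI, and these intervals overlap (1.43 to 6.36% and 0.155 to 4.53%). The gene for its ligand, TNFSF9, was also measured in monocytes, at 138 CPM in the A.G.-ES and 86.2 CPM in the untreated library (ratio 1.60, 1.22 to 2.12). There were 10 and 5 TNFRSF9 UMIs in SOX13/RHEX T barcodes, 8 and 4 in CD8B T, 2 and 0 in FOXP3-negative CD4 T and 1 and 1 in FOXP3-positive CD4 T barcodes. NK barcodes, 57 and 38 in number, held none, which allows a share of up to 5.26% and 7.89% of barcodes with a UMI by a limit of 3 counts, and of up to 6.27% and 9.25% by the exact interval.

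TNFRSF25 (death receptor 3), the receptor of TNFSF15 on T cells, was spread over all lymphocyte gates. In FOXP3-negative CD4 T barcodes it was at 23.0 CPM in the A.G.-ES library (148 UMIs) and 41.1 CPM in the untreated library (76 UMIs). The ratio was 0.560 (0.422 to 0.749), a log2 ratio of −0.84, and it was −0.81 without cycling barcodes and −0.43 with gates and levels on 1500 UMIs per barcode. The shares at 1500 UMIs were 2.66% and 4.83%. Levels were 18.3 and 22.0 CPM in SOX13/RHEX T, 13.1 and 19.0 CPM in CD8B T and 10.0 and 9.68 CPM in B barcodes, all within 1.5-fold between the libraries. In CD8B T barcodes the log2 ratio of −0.53 was −0.80 with equal weight per barcode and 1.18 with gates and levels on 1500 UMIs. In SOX13/RHEX T barcodes gates and levels on 1500 UMIs gave −1.05 instead of −0.27. The minimum of 20 UMIs was not applied to the values on 1500 UMIs. Neighbouring gates in the order from CD4 T down to CD8B T barcodes, which includes the small FOXP3-positive and NK gates, had overlapping intervals in both libraries. Gates further apart did not all overlap. FOXP3-negative CD4 T intervals lay above those of CD8B T barcodes, at 19.4 to 27.0 against 8.99 to 18.6 CPM in the A.G.-ES library. In the untreated library they were 32.4 to 51.4 against 11.3 to 30.0 CPM. SOX13/RHEX T barcodes, at 17.9 to 26.8 CPM, were also below in the untreated library, but overlapped in the A.G.-ES library. Among A.G.-ES SOX13/RHEX T barcodes those with a UMI of IL1R1, an interleukin-1 receptor, had 46.5 CPM of TNFRSF25 against 15 CPM in those without (13 and 36 UMIs, ratio 3.11, 1.51 to 6.00), and in the untreated library 15.4 against 22.1 CPM (1 and 98 UMIs, ratio 0.699, 0.0175 to 3.98). FOXP3-positive CD4 T barcodes held 7 and 5 UMIs, NK barcodes 2 and 4, and monocyte barcodes 1 each. The annotation has TNFRSF25 overlapping PLEKHG5, and whether the counts use strand is not given in the sources used here, so some of these UMIs may belong to that gene. The gene of its ligand, TNFSF15, was at 88.2 CPM in A.G.-ES and 32.3 CPM in untreated monocyte barcodes (ratio 2.73, 1.80 to 4.28).

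CD27, the receptor of CD70 and a marker of naive and memory T cells and, in human, of memory B cells, was found in every lymphocyte gate. In FOXP3-negative CD4 T barcodes it was at 107 CPM in the A.G.-ES library (690 UMIs) and 68.6 CPM in the untreated library (127 UMIs), a ratio of 1.56 (1.29 to 1.90). In CD8B T barcodes it was at 134 and 98.1 CPM (ratio 1.37, 1.08 to 1.74), and in SOX13/RHEX T barcodes at 70.4 and 62.3 CPM (1.13, 0.935 to 1.37). FOXP3-positive CD4 T barcodes had 101 and 104 CPM, and NK barcodes held 11 and 4 UMIs. A CD27 UMI was found at 1500 UMIs per barcode in 14.7% of A.G.-ES and 9.37% of untreated FOXP3-negative CD4 T barcodes, 19.0% and 14.9% of CD8B T and 11.4% and 8.28% of SOX13/RHEX T barcodes. With thinning to 1000 UMIs the FOXP3-negative CD4 T shares were 9.04% (7.55 to 10.7%) in A.G.-ES and 8.11% (5.41 to 11.6%) in untreated barcodes. The A.G.-ES interval thus lay within the untreated one at that depth. CD8B T shares were then 13.9% and 12.2%, and SOX13/RHEX T shares 8.33% and 5.83%.

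The CD27 difference in FOXP3-negative CD4 T barcodes lies close to the 1.5-fold line: its log2 ratio of 0.64 was 0.54 without cycling barcodes, 0.56 with stricter gates and 0.85 with TMM scaling. In CD8B T barcodes TMM scaling put it at 0.78 instead of 0.45. The CD8B T gate was divided by GNLY, a granule protein of cytotoxic cells, and CD27 was at 141 CPM with at least 5 GNLY UMIs and 132 CPM with fewer in the A.G.-ES library, and at 117 and 85.8 CPM in the untreated library. Neither ratio, 1.07 (0.837 to 1.36) and 1.36 (0.884 to 2.09), left out 1. Among SOX13/RHEX T barcodes, a split chosen after the values were seen, those with a UMI of SOX4 had more CD27 than those without in the A.G.-ES library, 92.2 against 62.3 CPM (ratio 1.48, 1.08 to 2.01), and 66.3 against 56.0 CPM in the untreated library (1.18, 0.921 to 1.53).

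In B barcodes CD27 was at 17.0 CPM in the A.G.-ES library (178 UMIs) and 7.88 CPM in the untreated library (249 UMIs), a ratio of 2.16 (1.77 to 2.63). The B gate was the lowest of the lymphocyte gates in both libraries, and the share of barcodes at 1500 UMIs was 2.43% (42 of 1725) in the A.G.-ES and 1.31% (42 of 3206) in the untreated library. B barcodes of both libraries also held UMIs of T-cell markers: the CD4 T list summed to 129 CPM and 125 CPM in the A.G.-ES and untreated B gates, and the CD8 T list to 40.3 and 11.1 CPM, and their part in the CD27 ratio was not tested. The ratio was 1.70 (1.02 to 2.85) in B barcodes with a UMI of FCER2 (CD23), a receptor of naive and follicular B cells, and 2.11 (1.69 to 2.61) in those without. With gates and levels on 1500 UMIs per barcode the log2 ratio was 0.31 instead of 1.11.

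CD40, the receptor of CD40LG, was a gene of B cells with a smaller part in monocytes. B barcodes had 53.1 CPM in the A.G.-ES library (556 UMIs) and 48.2 CPM in the untreated library (1524 UMIs), a ratio of 1.10 (0.998 to 1.22). Monocyte barcodes had 13.4 CPM (22 UMIs) and 20.4 CPM (17 UMIs), a ratio of 0.657 (0.333 to 1.32) whose log2 value of −0.61 was between −1.94 and −0.45 over the alternatives and within 1.5-fold under 5 of them. The CD4 T and NK gates held no CD40 UMI in either library, CD8B T barcodes 1 each, and SOX13/RHEX T barcodes 0 and 5. FCER2-positive B barcodes had more CD40 than FCER2-negative ones in both libraries, 80.1 against 49.0 CPM in the A.G.-ES library (ratio 1.63, 1.31 to 2.02) and 82.7 against 46.0 CPM in the untreated library (1.80, 1.52 to 2.12). CD27 followed the same split, at 26.7 against 15.5 CPM (1.72, 1.16 to 2.48) and 15.7 against 7.37 CPM (2.13, 1.40 to 3.13).

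TNFRSF13C, the BAFF receptor, differed little between the libraries in B barcodes. B barcodes had 184 CPM in the A.G.-ES library (1926 UMIs) and 180 CPM in the untreated library (5685 UMIs), a ratio of 1.02 (0.971 to 1.08). At 1500 UMIs per barcode 24.8% and 24.4% of B barcodes had a TNFRSF13C UMI, where 59.7% and 74.4% had one without thinning. Over the alternatives the log2 ratio of 0.03 stayed between −0.05 and 0.07. Every other gate had at most 1.86 CPM in the A.G.-ES library and 3.24 CPM in the untreated library.

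TNFRSF13B (TACI), which binds BAFF and APRIL and in mouse and human rises as B cells become plasma cells, was at 24.5 CPM in A.G.-ES and 28.7 CPM in untreated B barcodes (256 and 908 UMIs, ratio 0.852, 0.738 to 0.979). B barcodes with at least 3 UMIs of the antibody-secretion genes MZB1, DERL3 and JCHAIN had more of it than the others. The levels were 36.1 against 19.6 CPM in the A.G.-ES library (ratio 1.84, 1.43 to 2.38) and 33.8 against 20 CPM in the untreated library (1.69, 1.45 to 1.97). Such barcodes numbered 411 of 1747 in the A.G.-ES library and 1645 of 3248 in the untreated library, at medians of 6509 and 11091 UMIs, and within them the A.G.-ES over untreated ratio was 1.07 (0.867 to 1.31), as it was 0.979 (0.790 to 1.21) in the others. Among the antibody-secretion barcodes outside the gates, the 9 of the A.G.-ES library held 1 TNFRSF13B UMI and none of TNFRSF13C, and the 47 untreated ones held 53 (140 CPM, 105 to 183) and 5.

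The antibody-secretion split divided the other genes of B barcodes differently. TNFRSF13C was a little lower in the barcodes with such genes, at 171 against 189 CPM in the A.G.-ES library (ratio 0.905, 0.817 to 1.00) and 170 against 197 CPM in the untreated library (0.865, 0.820 to 0.912). TNFRSF25 was at 7.82 against 11.0 CPM (0.713, 0.432 to 1.14) and 7.41 against 13.6 CPM (0.546, 0.433 to 0.687). CD40 went opposite ways in the libraries, with A.G.-ES levels of 44.3 against 56.8 CPM (0.780, 0.638 to 0.948) and untreated levels of 51.1 against 43.3 CPM (1.18, 1.06 to 1.31).

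**Figure D5:**
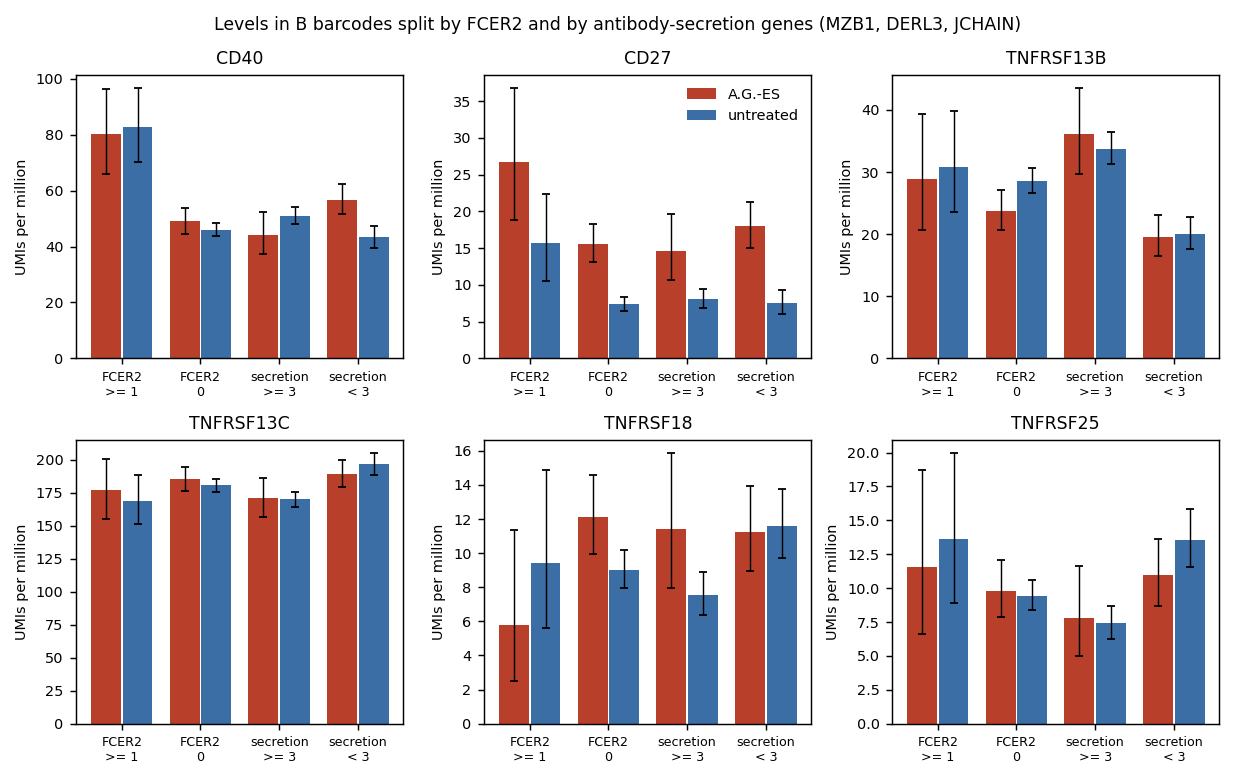
Levels of 6 genes (y axis, CPM) in B barcodes with and without an FCER2 UMI and with at least 3 or fewer UMIs of antibody-secretion genes (x axis), in the A.G.-ES library (red) and the untreated library (blue), with exact 95% Poisson intervals. CD40 is higher with FCER2 in both libraries (80.1 against 49.0 and 82.7 against 46.0) and TNFRSF13B higher with antibody-secretion genes (36.1 against 19.6 and 33.8 against 20).

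Small amounts of TNFRSF13B were also counted in T barcodes. FOXP3-negative CD4 T barcodes held 33 TNFRSF13B and 7 TNFRSF13C UMIs in the A.G.-ES library and 6 of each in the untreated library, and SOX13/RHEX T barcodes 13 and 5 A.G.-ES and 28 and 12 untreated ones. In B barcodes the counts of the same genes were 256 and 1926 in the A.G.-ES and 908 and 5685 in the untreated library, and the part of stray B-cell RNA in the T barcodes was not tested. The TNFRSF13B ratio between the libraries in FOXP3-negative CD4 T barcodes, 1.58 (0.655 to 4.62), had a log2 value of 0.66, which was 0.01 without cycling barcodes and 0.11 with doublets kept.

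The other genes of the family were read from lists of 14 further receptors, 15 further ligands and 17 TRAF adaptors and regulators in the tables. Over the 7 gates, 41 pairs of a ligand gene and a gate reached 20 UMIs, and 22 were at least 1.5-fold higher and 4 lower in the A.G.-ES library. Of 28 receptor pairs 5 were higher and 8 lower, and of 101 signalling pairs 11 were higher and 12 lower. Of all genes, 9.82% to 20.9% were higher and 15.7% to 29.7% lower across the 7 gates. The ligand list had a median log2 ratio of 1.14 in B barcodes (6 of 9 higher, 1 lower), where the median of all genes was −0.08 and 16.1% of all genes were higher and 17.4% lower, and 0.44 in FOXP3-negative CD4 T barcodes (4 of 8 higher, 2 lower), where it was −0.16 and the shares were 10.5% and 18.0%.

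FASLG, the ligand of the death receptor FAS, was at 81.0 CPM in A.G.-ES and 37.3 CPM in untreated FOXP3-negative CD4 T barcodes (ratio 2.17, 1.69 to 2.83), 214 and 120 CPM in CD8B T and 21.6 and 2.67 CPM in SOX13/RHEX T barcodes (58 and 12 UMIs, ratio 8.10, 4.30 to 16.6). The CD8 T list summed to 273 CPM in A.G.-ES and 64.3 CPM in untreated SOX13/RHEX T barcodes. It summed to 3054 and 1370 CPM in CD8B T barcodes and to 391 and 348 CPM in FOXP3-negative CD4 T ones. The NK list summed to 198 and 142 CPM in SOX13/RHEX T and to 137 and 31.9 CPM in FOXP3-negative CD4 T barcodes. In CD8B T barcodes the NK list went the other way, at 5885 against 7430 CPM. The part of these lists in the FASLG ratios was not tested. TNFSF10 (TRAIL) was at 191 CPM in A.G.-ES and 71.8 CPM in untreated B barcodes (2.66, 2.50 to 2.82) and at 224 and 107 CPM in monocytes (2.10, 1.66 to 2.68). TNFSF8, the ligand of CD30, was at 48.8 and 26.5 CPM in FOXP3-negative CD4 T barcodes (1.84, 1.36 to 2.54). LTB, a subunit of lymphotoxin, differed in the other direction in B barcodes, at 139 and 314 CPM (0.442, 0.418 to 0.467).

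Of the other receptors, TNFRSF1B (TNF receptor type 2) was at 155 CPM in A.G.-ES and 50.1 CPM in untreated B barcodes (ratio 3.10, 2.89 to 3.33) and at 527 and 505 CPM in FOXP3-negative CD4 T barcodes. FAS was at 40.1 and 68.6 CPM in B barcodes (0.585, 0.526 to 0.650) and at 94.3 and 84.8 CPM in FOXP3-negative CD4 T barcodes. TNFRSF11A, the receptor of the TNFSF11 product, was at 8.08 and 17.3 CPM in FOXP3-negative CD4 T barcodes (52 and 32 UMIs, 0.467, 0.295 to 0.750). Among the adaptors, TRAF3, which holds back the NF-kB branch used by CD40 and the BAFF receptor, was at 144 and 235 CPM in FOXP3-negative CD4 T (0.613, 0.546 to 0.689), 106 and 212 CPM in CD8B T and 274 and 430 CPM in B barcodes (0.637, 0.612 to 0.663). TRAF5 was at 47.6 and 96.2 CPM in FOXP3-negative CD4 T barcodes (0.494, 0.410 to 0.598). TRAF1 was at 27.9 and 13.8 CPM in B barcodes (2.03, 1.74 to 2.36) and at 333 and 590 CPM in monocytes (0.563, 0.498 to 0.637).

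The genes whose levels over the 7 gates and 2 libraries ran most like those of the 10 were sought among 9084 genes, by Pearson's r of log2(CPM + 1) over 14 points that share libraries and depths. TNFRSF9 and TNFSF11, with under 100 UMIs over the gates, were left out. CD40LG had TAFA2 (0.97), GAREM1 (0.96) and ICOS, a costimulatory receptor (0.96). TNFRSF4 had CCR8, a chemokine receptor (0.93), ARNT and IGSF1, and TNFRSF18 had RBM45 (0.95), ACBD4 and TM7SF3. CD27 had SKAP1, a T-cell adaptor (0.97), and TNFRSF25 had NUP54 (0.98). CD40 had SLC37A2 (0.99) and TLR10, TNFRSF13C had SEMA4B and FCRLA (both 0.98), and TNFRSF13B had FRMD3 (0.92).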

How the data were processed

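The authors deposited whole-number UMI counts per gene and barcode for each library, per the file headers of the matrices, and no other unit was used. Cells were prepared with a SeekOne DD 3′ kit and sequenced on a SURFSeq 5000, per the labels' protocols. The aligner and the genome build were not given in the sources used here, nor were the cell calling and the use of strand. All columns belonged to these 2 libraries. The gene names were matched to RefSeq, and all 26814 had an entry.

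Barcodes were kept with at least 500 UMIs, 200 genes and at most 15% mitochondrial UMIs, which removed 186 A.G.-ES and 158 untreated barcodes. Scrublet (scanpy 1.11.5) then removed the 715 and 523 highest-scoring barcodes (7.56% and 6.47%), at a fixed rate of 0.8% per 1000 cells; its own threshold would have called 216 and 217. Gates needed at least 2 CD3 UMIs (CD3D, CD3E) for T cells, 3 B or 3 monocyte UMIs, 2 UMIs of SOX13 and RHEX together or 1 of NCR1 and KLRF1, and at most 1 UMI of another lineage. Counts were summed per gate and library and given as CPM with exact Poisson intervals. Ratios carry exact conditional intervals and were called past 1.5-fold with at least 20 UMIs over both libraries, and a count of 0 was set to a floor of 3. Shares have exact Clopper-Pearson intervals, and thinning each barcode to 1500 UMIs left out 72 A.G.-ES and 103 untreated gated barcodes. The scripts were tested on simulated data. Python 3 libraries were numpy 2.4.6, scipy 1.17.1 and pandas 2.3.3; TMM factors came from edgeR 4.0.16.

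With 1 library per group no model across samples was fitted and no p-value is given. The alternatives were TMM scaling, equal weight per barcode, totals without ribosomal, mitochondrial and haemoglobin genes, stricter and looser gates, gates on 1500 UMIs, other minimums, doublets kept and, chosen after seeing the data, leaving out cycling or antibody-secretion barcodes. Shares were also taken without thinning and at 1000 UMIs per barcode. The 10 genes and all lists were chosen with earlier results of these data known. All 10 genes are reported; from each list the text names genes among the 3 with most UMIs, or the 3 with the largest ratio among those with at least 50 UMIs, in a gate. TNFRSF10B and TNFRSF14 have no row under these names. No sequence of the genes is printed.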

Additional observations from a re-analysis of the deposited data

Results flagged for a closer look

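The ratio of TNFRSF18 between the libraries ran in opposite directions in different T gates. The log2 ratio of the A.G.-ES over the untreated library was −1.05 in FOXP3-positive CD4 T barcodes and −1.18 in FOXP3-negative CD4 T barcodes, and 1.28 in SOX13/RHEX T barcodes. All 3 exact intervals leave out 0 on this scale. With 1 library per group the difference between the gates was not tested. The SOX13/RHEX T value rests on 26 A.G.-ES and 18 untreated UMIs, with at most 5 and 3 in any barcode, and ranged from 0.71 to 1.42 over the alternatives.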

How the results depend on the processing

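Without a minimum above 1 UMI, 42 pairs of a gene and a gate were counted, 10 at least 1.5-fold higher and 10 lower in the A.G.-ES library, where 12.7% to 25.4% of all genes were higher and 17.9% to 31.1% lower across gates. With a minimum of 100 UMIs it was 2 higher and 2 lower of 14, against 4.78% to 13.7% and 12.3% to 25.3% of all genes. Without cycling barcodes it was 3 higher and 7 lower of 28. With gates and levels on 1500 UMIs per barcode it was 3 higher and 2 lower of 13. Under the other settings 4 to 7 pairs were higher and 5 to 8 lower. The share of all genes was not computed at these settings, so the counts cannot be set against it. Among ratios past 1.5-fold the only one that reversed was TNFRSF4 in FOXP3-positive over FOXP3-negative CD4 T barcodes of the A.G.-ES library, at −0.58 (log2) with stricter gates; the cause was not tested. Below 1.5-fold, gates and levels on 1500 UMIs put CD40LG in FOXP3-negative CD4 T barcodes at 1.31 and TNFRSF25 in CD8B T barcodes at 1.18, both below 0 as reported. The minimum of 20 UMIs was not applied to such alternative ratios, and 13 pairs reached it at this setting, against 28 as reported. TNFRSF18 in both CD4 T gates and SOX13/RHEX T barcodes, TNFSF11 in SOX13/RHEX T barcodes and TNFRSF9 in monocytes (1.19 to 2.24) kept direction and stayed past 1.5-fold under every alternative run. Of the alternative ratios between the libraries 282 stayed within the counting interval of the reported value and 19 left it. Of the alternative differences in shares, without thinning or at 1000 UMIs, 39 stayed within a margin set by the counting intervals and 17 left it. At 1000 UMIs the TNFRSF9 shares in monocytes were 0.810% in A.G.-ES (2 of 247) and 0.613% in untreated barcodes (1 of 163). TMM shifted log2 ratios by 0.02 in B to 0.32 in CD8B T barcodes. No paired analysis was possible because each group has 1 library. The number of barcodes limits the FOXP3-positive CD4 T and NK gates, where most of the 10 genes had under 20 UMIs, and animals cannot be told apart from treatment.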
